A study of Drosophila melanogaster with 6 samples.

Results

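The genes described here are 10 regulators of non-muscle actomyosin and of actin filaments, zip, sqh, rok, Rho1, RhoGEF2, tsr, chic, ena, dia and Moe, taken by symbol from a table of 14239 Drosophila genes. All 10 were found, and all 10 were among the 8437 genes whose mean over both groups was at least 1 FPKM. FPKM is the number of sequenced fragments scaled to transcript length and library size, so levels can be compared between genes of different length. The study asked which genes differ in expression when a wing disc, the larval primordium of the adult wing, regrows after the wing pouch has been killed. Ablated larvae carried nub-GFP together with rn-Gal4, GAL80ts and UAS-rpr, and control larvae carried nub-GFP with rn-Gal4 and GAL80ts alone. In ablated larvae the rotund driver therefore turned on reaper, a cell death gene, in most of the wing pouch, while the mock-ablated controls went through the same temperature steps without it. Both groups grew at 18 °C, spent 24 h at 30 °C and recovered for 24 h, after which GFP-labelled pouch cells were sorted. Each group had 3 replicates, each pooled from many discs dissected on several days. The ablated cells are the regeneration blastema, and the sort keeps those that use the nubbin locus, whatever their origin.

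Actomyosin is the contractile machinery under the cell membrane. Non-muscle myosin II pulls on actin filaments when its regulatory light chain is phosphorylated, and the small GTPase Rho1 switches this on through the kinase encoded by rok while driving new filaments through the formin encoded by dia. Other proteins set how fast filaments grow and fall apart, and Moesin ties them to the membrane. In wing discs this machinery shapes and holds together the epithelium, closes wounds, divides cells and removes dying ones.

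The deposited values are 1 FPKM per gene and group, combined over the replicates. No spread between replicates and no test could be computed from them, so each difference below has no error and no replicate check, and the read depth behind each gene is unknown. Differences are given as the log2 ratio of the ablated to the control FPKM, with no pseudocount. Summed over the whole table, FPKM came to 889990 in the ablated group and 1081834 in the control group, and scaling both groups to the same sum would raise every log2 ratio by 0.28. The pouch marker nub was present in both groups, at 51.8 FPKM in ablated and 89.9 FPKM in control cells, and rpr had 55.2 FPKM in ablated and 70.3 FPKM in control cells. Of 5 pouch markers 4 were lower in ablated cells (summed level 244 FPKM, against 329 FPKM in controls), and of 7 hinge and notum markers 6 were higher (293 FPKM in ablated cells, against 186 FPKM in controls). All 5 myoblast markers were higher (summed 32.2 FPKM in ablated and 5.73 FPKM in control cells), as were all 5 hemocyte markers (2.98 FPKM in ablated and 1.19 FPKM in control cells, with nimC1 listed at 0 in controls). The 10 muscle structure genes, 8 of them higher, summed to 8.79 FPKM in ablated and 5.05 FPKM in control cells. Of 3 tracheal markers 2 were higher (summed 12.8 FPKM in ablated and 26.6 FPKM in control cells), as were both neuronal and glial markers (6.73 FPKM in ablated and 3.42 FPKM in control cells). The part of these cell types in the results below was not tested. In bulk samples, fewer cells of a type and less RNA per cell cannot be told apart.

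The actomyosin genes differed by less than 1.5-fold between the regeneration blastema and control wing pouch cells. None of the 10 was at least 1.5-fold higher and none at least 1.5-fold lower in the ablated group, where 15.0% and 9.47% of the 8437 genes were, and none reached a log2 ratio of 1.3 in size, the study's threshold, which 6.63% of the genes did. At a log2 ratio of at least 0.322 in size, 3 members were higher in ablated cells (dia, RhoGEF2 and Moe; 25.2% of all genes) and 2 were lower (tsr and sqh; 25.4% of all genes). The log2 ratios ran from -0.49 for tsr to 0.44 for dia. Their median was 0.0076, beside -0.039 for all 8437 genes, and the median size of the difference was 0.34 for the members and 0.33 for all genes. The quartiles of all genes were -0.33 and 0.33, and 5 of the 10 members fell between them.

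**Figure D1:**
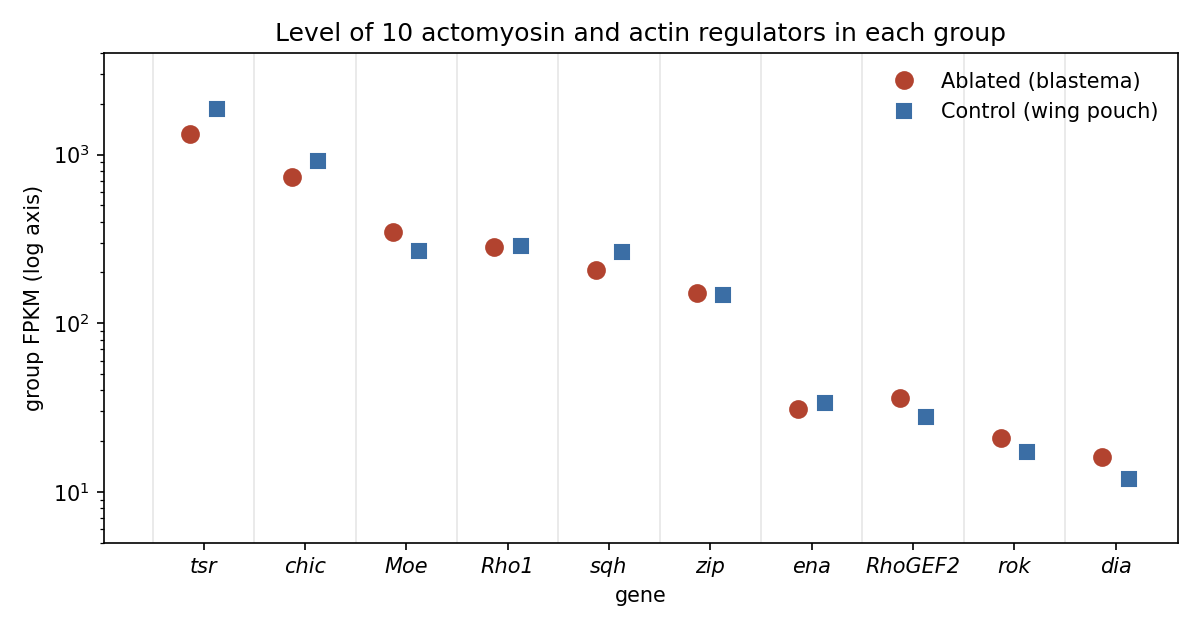
Group FPKM (log axis) of the 10 genes, ordered by mean level; circles are the ablated group and squares the control group, each a single value over 3 replicates, so no error bar can be drawn. The genes span from 1324 FPKM (tsr) to 16.1 FPKM (dia) in ablated cells, and the gap between groups is small beside that span.

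The members fell into abundant and scarce parts of the machinery. The filament-disassembly gene tsr and the monomer-binding gene chic were the most abundant and together made up 65.4% of the members' summed FPKM in ablated cells and 72.4% in control cells. The whole sum was 3149 FPKM in ablated cells and 3824 FPKM in control cells. Without tsr and chic, the other 8 members summed to 1091 FPKM in ablated cells and 1057 FPKM in control cells. The other 8 members together thus had no lower sum as deposited, with some of them lower and some higher. The log2 ratio of the whole sums was -0.28. Rescaling both groups to the same FPKM sum raises every log2 ratio by 0.28, so the members' whole sum was then level between groups.

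Among the chains of myosin II as deposited, the heavy chain gene was level between groups and both light chain genes had lower values in ablated cells. The heavy chain gene zip (chromosome 2R, 20878471 to 20899488, release 5) had 151 FPKM in ablated cells and 147 FPKM in control cells, a log2 ratio of 0.033. The regulatory light chain gene sqh (chromosome X, 6117094 to 6119196), whose product is phosphorylated to activate the motor, had 207 FPKM in ablated cells and 265 FPKM in control cells, 1.28-fold lower with a log2 ratio of -0.35. For each FPKM of zip there were 1.37 FPKM of sqh in ablated cells and 1.80 in control cells. The essential light chain gene Mlc-c, which is not a member, had 181 FPKM in ablated and 237 FPKM in control cells (log2 ratio -0.38). Its level per FPKM of zip was 1.20 in ablated cells and 1.60 in control cells. After rescaling both groups to the same FPKM sum, Mlc-c was at -0.10 and sqh at -0.073. Against genes of similar level they were at -0.023 and -0.027. In those settings zip was at 0.31 and 0.39. Against genes of similar transcript length the order turned round, with zip at -0.32, Mlc-c at -0.20 and sqh at -0.18. The lower levels of the light chain genes per FPKM of zip thus depended on the scaling. No other gene overlaps the loci of zip and sqh in the table, but that of Mlc-c overlaps l(1)G0045.

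In the Rho1 switch as deposited, the GTPase gene was level between groups, and its exchange factor and both effectors had higher values in ablated cells. Rho1 (chromosome 2R, 11990191 to 11994734), the GTPase at the head of the pathway, had 282 FPKM in ablated cells and 286 FPKM in control cells, a log2 ratio of -0.018. RhoGEF2 (chromosome 2R, 12914746 to 12932161), the exchange factor that loads Rho1 with GTP, had 36.1 FPKM in ablated cells and 27.7 FPKM in control cells, a log2 ratio of 0.38. Its rank by level among all genes was 2383 in ablated cells and 3139 in control cells.

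The effectors act on myosin and on filaments. The kinase gene rok (chromosome X, 16519142 to 16531452), whose product phosphorylates the light chain and inhibits its phosphatase, had 20.9 FPKM in ablated cells and 17.2 FPKM in control cells, 1.22-fold higher with a log2 ratio of 0.29. The formin gene dia (chromosome 2L, 20758147 to 20767523), whose product extends unbranched filaments, had 16.1 FPKM in ablated cells and 11.9 FPKM in control cells, 1.35-fold higher with a log2 ratio of 0.44. That was the highest ratio of the 10 genes, at percentile 80.0 of all genes. Against genes of similar transcript length dia was at 0.20, RhoGEF2 at 0.027 and rok at -0.068, beside 0.052 for Rho1. The genes RhoGEF2, rok and dia were far scarcer than Rho1 in both groups. In ablated cells there were 7.82 FPKM of Rho1 for each FPKM of RhoGEF2, 13.5 for each of rok and 17.5 for each of dia, against 10.3, 16.6 and 24.0 in control cells. CG30459, which overlaps RhoGEF2, and CG9777, which overlaps rok, were under 0.4 FPKM in both groups. The locus of dia overlaps no other gene.

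The genes of filament turnover were lower or near 0 on the log2 scale. The cofilin gene tsr (chromosome 2R, 19925507 to 19934359), whose product severs and disassembles filaments, had 1324 FPKM in ablated cells and 1854 FPKM in control cells, 1.40-fold lower. Its log2 ratio of -0.49 was the lowest of the 10, at percentile 14.0 of all genes, and its rank was still 107 in ablated cells, against 103 in control cells. The profilin gene chic (chromosome 2L, 5972900 to 5981025), whose product hands actin monomers to formins and to Enabled, had 733 FPKM in ablated cells and 913 FPKM in control cells, a log2 ratio of -0.317, just short of 0.322 in size. Its rank was 132 in ablated and 133 in control cells. The gene ena (chromosome 2R, 15017099 to 15050124), which encodes a protein that lengthens filaments at their growing ends, had 30.8 FPKM in ablated cells and 33.4 FPKM in control cells, a log2 ratio of -0.12. There were thus 45.6 FPKM of chic for each FPKM of dia in ablated cells, against 76.9 in control cells, and 1.91 FPKM of ena for each of dia, against 2.81. The locus of ena overlaps CG15111, CG15118 and botv, and that of tsr overlaps CG3173. The library kit was stranded, but the sources used here do not say whether the counting kept the strand. That makes the value of ena less certain, because its neighbours had levels like its own. CG15111 had 20.7 FPKM in ablated cells and 28.9 FPKM in control cells, and CG15118 had 38.9 FPKM in ablated cells and 43.9 FPKM in control cells. The neighbour of tsr was far scarcer than tsr, as CG3173 had 12.6 FPKM in ablated cells and 11.3 FPKM in control cells.

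Moesin was the only member above 100 FPKM with a ratio of more than 0.322. Moe (chromosome X, 8767636 to 8792343), which encodes the fly's ezrin, radixin and moesin protein linking filaments to the plasma membrane, had 347 FPKM in ablated cells and 268 FPKM in control cells, 1.29-fold higher with a log2 ratio of 0.37. Its rank among all genes was 240 in ablated cells and 403 in control cells. The 421 genes with the highest mean level (at least 229 FPKM), which include Moe, had a median log2 ratio of -0.33. Among these 421 genes Moe stood at percentile 96.8, Rho1 at 89.2, chic at 53.8, sqh at 46.4 and tsr at 29.3. No other gene overlaps the locus of Moe.

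The level of a gene and its difference between groups were linked across the table, and the members had a correlation of the same sign. Across the 8402 genes with a finite ratio, the Spearman correlation of mean FPKM with the log2 ratio was -0.46, and across the 10 members it was -0.70. These are descriptions across genes measured in the same libraries, and genes are not replicates. The median log2 ratio was -0.34 over the 938 genes with at least 100 FPKM and -0.066 over the 3171 genes from 10 to 40 FPKM. Among the 4649 genes within the members' own range of mean FPKM (14.0 to 1589) it was -0.18, beside 0.0076 for the members. Against genes of similar level, 8 of the 10 members were higher and only sqh and tsr were lower.

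Transcript length ran the same way as the difference. The longest annotated transcript of each member runs from 735 bases for tsr and 1403 for sqh to 7190 for rok and 8486 for RhoGEF2, and its Spearman correlation with the log2 ratio was 0.78 over the 10 members and 0.33 over 8250 genes. Over all genes, the median log2 ratio was 0.28 for the 931 genes with transcripts over 5000 bases and -0.25 for the 2881 genes with transcripts of at most 1500 bases. Against genes of similar transcript length, 4 members were higher and 6 were lower. Whether length, level or neither bears on a member's difference was not tested.

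**Figure D2:**
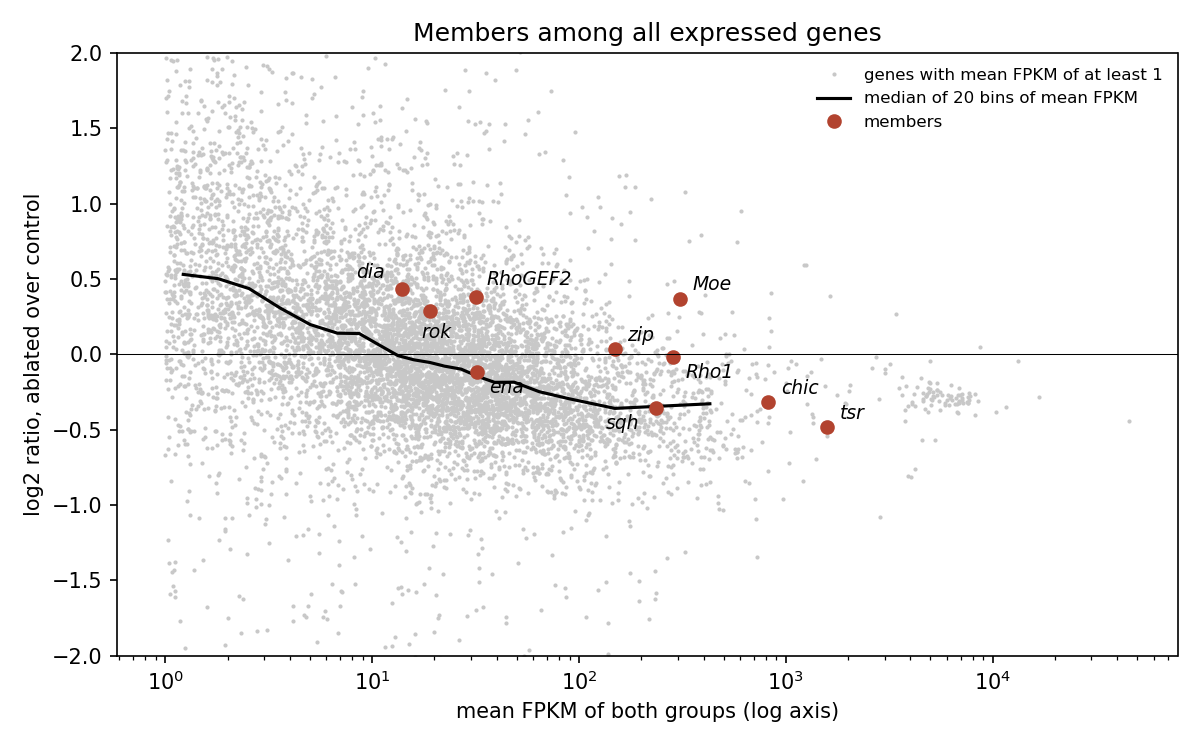
Log2 ratio of ablated over control FPKM against mean FPKM (log axis) for genes with a mean of at least 1 FPKM (grey points; 202 genes lie outside the plotted range), with the median of 20 bins of level (black line) and the 10 members (red points). Moe, at 0.37, lies above the line at its level and sqh lies near it; chic and tsr lie at higher levels than the line reaches.

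The direction of 5 members depended on how the groups were scaled, and that of the other 5 did not. The genes dia, RhoGEF2 and Moe were higher in ablated cells, and tsr and sqh lower, under each of 4 other scalings: centring on the median gene, rescaling both groups to the same FPKM sum, and subtracting the median of genes of similar level or of similar transcript length. The last was chosen after the values were seen. The log2 ratio of Moe lay between 0.32 and 0.70 under these scalings, that of dia between 0.20 and 0.72, and that of RhoGEF2 between 0.027 and 0.66. The ratio of tsr lay between -0.45 and -0.16, and that of sqh between -0.32 and -0.027. By contrast, zip was 0.31 after rescaling and 0.39 against genes of similar level, but -0.32 against genes of similar length. The ratio of rok became -0.068 after subtraction of genes of similar length, and Rho1 was above 0 under all 4 scalings. The ratio of chic was 0.012 against genes of similar level, and that of ena was 0.16 after rescaling and 0.030 against genes of similar level. After rescaling, dia (0.72), RhoGEF2 (0.66) and Moe (0.65) were past 1.5-fold, and against genes of similar level Moe (0.70) was.

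**Figure D3:**
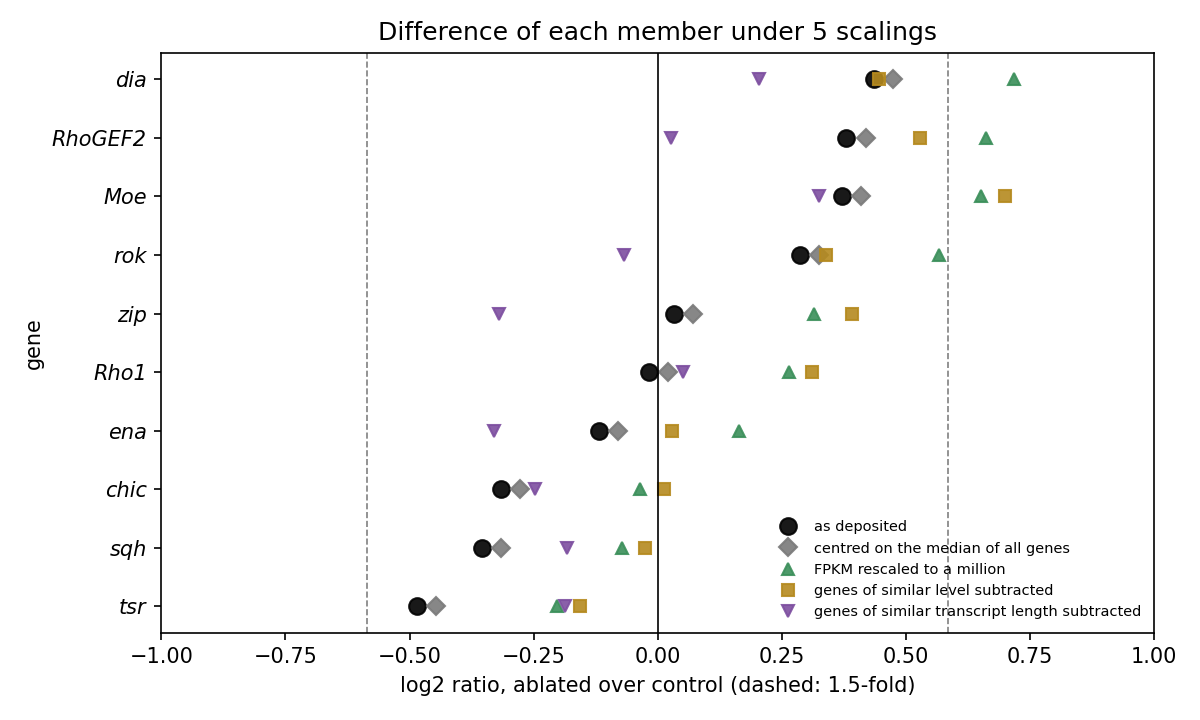
Log2 ratio of ablated over control for each of the 10 genes as deposited (black circles) and under 4 other scalings; dashed lines mark 1.5-fold and the solid line no difference. All 5 marks lie to the right of 0 for dia, RhoGEF2 and Moe and to the left for sqh and tsr, and the marks of zip, rok, Rho1, ena and chic lie on both sides.

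The wider machinery was read from 123 other genes of actin and myosin regulation, of which 110 had a mean of at least 1 FPKM. Of these 110, 9 were at least 1.5-fold higher in ablated cells (8.18%) and 5 at least 1.5-fold lower (4.55%), beside 15.0% and 9.47% of all genes. Their median log2 ratio was 0.10, and -0.065 against genes of similar transcript length, where 45 lay above 0 and 63 below. In that setting Sep2 lay at 0 and d had no transcript length. After rescaling, none of the 5 lower genes was past 1.5-fold. Of 12 genes for exchange factors, which activate Rho1, Rac or related GTPases, and for upstream signals, 3 were past 1.5-fold higher and none lower, with a median of 0.30. These were fog, which encodes a secreted signal that triggers apical constriction in the fly embryo (4.07 FPKM in ablated and 2.12 FPKM in control cells, log2 ratio 0.94), mbc, which encodes a Rac activator used in myoblast fusion (14.6 FPKM in ablated and 8.06 FPKM in control cells, 0.85), and mthl1, a receptor gene (7.47 FPKM in ablated and 4.23 FPKM in control cells, 0.82). The most abundant gene of this list by the mean of both groups, trio, had 42.6 FPKM in ablated and 33.4 FPKM in control cells, a log2 ratio of 0.35. Against genes of similar transcript length the list had a median of 0.040, with 7 genes above 0 and 5 below, and mbc (0.50) was no longer past 1.5-fold.

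Of 3 p21-activated kinase genes none was past 1.5-fold in either direction, and Pak, the most abundant, had a log2 ratio of 0.053.

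Among 7 other genes for myosin II chains and for the kinases and phosphatase of its light chain, Strn-Mlck, a light chain kinase gene, was past 1.5-fold higher (2.617 FPKM in ablated and 1.004 FPKM in control cells, log2 ratio 1.38), and it shares its locus with 3 genes. It was scarce in both groups. Genes of similar level had a median log2 ratio of 0.50, and against them Strn-Mlck was at 0.88. The phosphatase subunit gene Mbs, whose product is inhibited by the rok kinase, had 43.5 FPKM in ablated and 38.1 FPKM in control cells, a log2 ratio of 0.19. Of 5 further formins, form3 was higher (3.69 FPKM in ablated and 1.299 FPKM in control cells, log2 ratio 1.51) and overlaps msl-3. The most abundant by the mean of both groups, capu, had a log2 ratio of 0.35.

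Most genes of branched filaments had lower values in ablated cells, as had tsr and chic. Of 16 genes for the Arp2/3 complex and its activators, 13 were below 0 on the log2 scale, with a median of -0.35, and 2 were past 1.5-fold lower. Of all genes 52.9% were below 0, and of the 5435 genes with a mean of at least 10 FPKM 66.2% were. The median of the list was -0.071 after rescaling, with 7 genes above 0 and 9 below, and -0.13 against genes of similar level. The 2 genes past 1.5-fold were under it in each of the 4 other scalings. They were p16-ARC (81.7 FPKM in ablated and 124 FPKM in control cells, log2 ratio -0.60) and Arc-p20 (143 FPKM in ablated and 216 FPKM in control cells, -0.59), both subunits of the complex, and Arc-p20 overlaps CG9226. All 7 subunit genes with a mean of at least 1 FPKM were lower (Arpc3B was below that level and is not counted), from -0.60 to -0.23, as they were after centring and against genes of similar length, while 6 of 7 were after rescaling and against genes of similar level. Among 12 genes of filament turnover and ends, 7 were below 0 and 5 above, with a median of -0.23. The beta-thymosin gene cib, whose product binds actin monomers, was past 1.5-fold lower (780 FPKM in ablated and 1288 FPKM in control cells, -0.72). It was at -0.44 after rescaling and -0.40 and -0.55 against genes of similar level and of similar length, all under 1.5-fold. The median of the list was 0.049 after rescaling, and 0.039 against genes of similar level, where 7 were above 0 and 5 below.

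The actin genes themselves differed from each other. Act5C, the most abundant, had 2893 FPKM in ablated cells and 3147 FPKM in control cells, a log2 ratio of -0.12. Act42A, the other actin of non-muscle cells, had 866 FPKM in ablated cells and 1550 FPKM in control cells, a log2 ratio of -0.84, and its locus overlaps PNGase. Act42A was at -0.56 after rescaling and -0.51 against genes of similar level, both under 1.5-fold. Against genes of similar length it was at -0.69, still past 1.5-fold. Act87E, a muscle actin, had 3.09 FPKM in ablated cells and 0.97 FPKM in control cells, a log2 ratio of 1.67, beside the higher myoblast markers above. Its mean reached 1 FPKM only through the ablated group. Genes of similar level had a median log2 ratio of 0.50, and against them Act87E was at 1.17. The actins are near-identical, so reads shared between them make these values uncertain. For each FPKM of tsr there were 2.18 FPKM of Act5C in ablated cells, against 1.70 in control cells.

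Genes that cross-link filaments or fix them to the membrane, as Moe does, were mostly above 0. Of 16, 13 were above 0, with a median of 0.21, and cher, the filamin gene, was past 1.5-fold higher (69.3 FPKM in ablated and 42.4 FPKM in control cells, log2 ratio 0.71). It shares its locus with 3 genes, and against genes of similar length it was 0.36, no longer past 1.5-fold. Tm1, a tropomyosin gene and the most abundant of the list, had 313 FPKM in ablated cells and 338 FPKM in control cells, a log2 ratio of -0.11. The count above 0 was 16 of 16 after rescaling and against genes of similar level, and 5 of 16 against genes of similar length. Of 8 unconventional myosin genes, Myo31DF, which sets left and right asymmetry of fly organs, was past 1.5-fold higher (44.1 FPKM in ablated and 23.7 FPKM in control cells, 0.90), and jar, the most abundant by the mean of both groups, had a log2 ratio of -0.38. The next by mean level, d, was above jar in ablated cells (145 FPKM in ablated and 119.9 FPKM in control cells, log2 ratio 0.28). The median of this list was 0.18, and -0.18 against genes of similar length over 7 genes, because d had no transcript length. The 4 septin genes with a mean of at least 1 FPKM (Sep4 was below that level and is not counted), led in level by pnut (115.1 FPKM in ablated and 118.4 FPKM in control cells), lay between -0.24 and -0.037, and above 0 after rescaling and against genes of similar level. The transcription factor gene bs, which encodes the serum response factor, was lower (14.2 FPKM in ablated and 22.8 FPKM in control cells, -0.68). After rescaling bs was at -0.40, under 1.5-fold. It was at -0.63 against genes of similar level and -0.81 against genes of similar length. The cofactor gene Mrtf had 9.34 FPKM in ablated cells and 6.46 FPKM in control cells, a log2 ratio of 0.53, with Acp62F overlapping its locus. In the same settings Mrtf was at 0.81, 0.39 and 0.18.

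**Figure D4:**
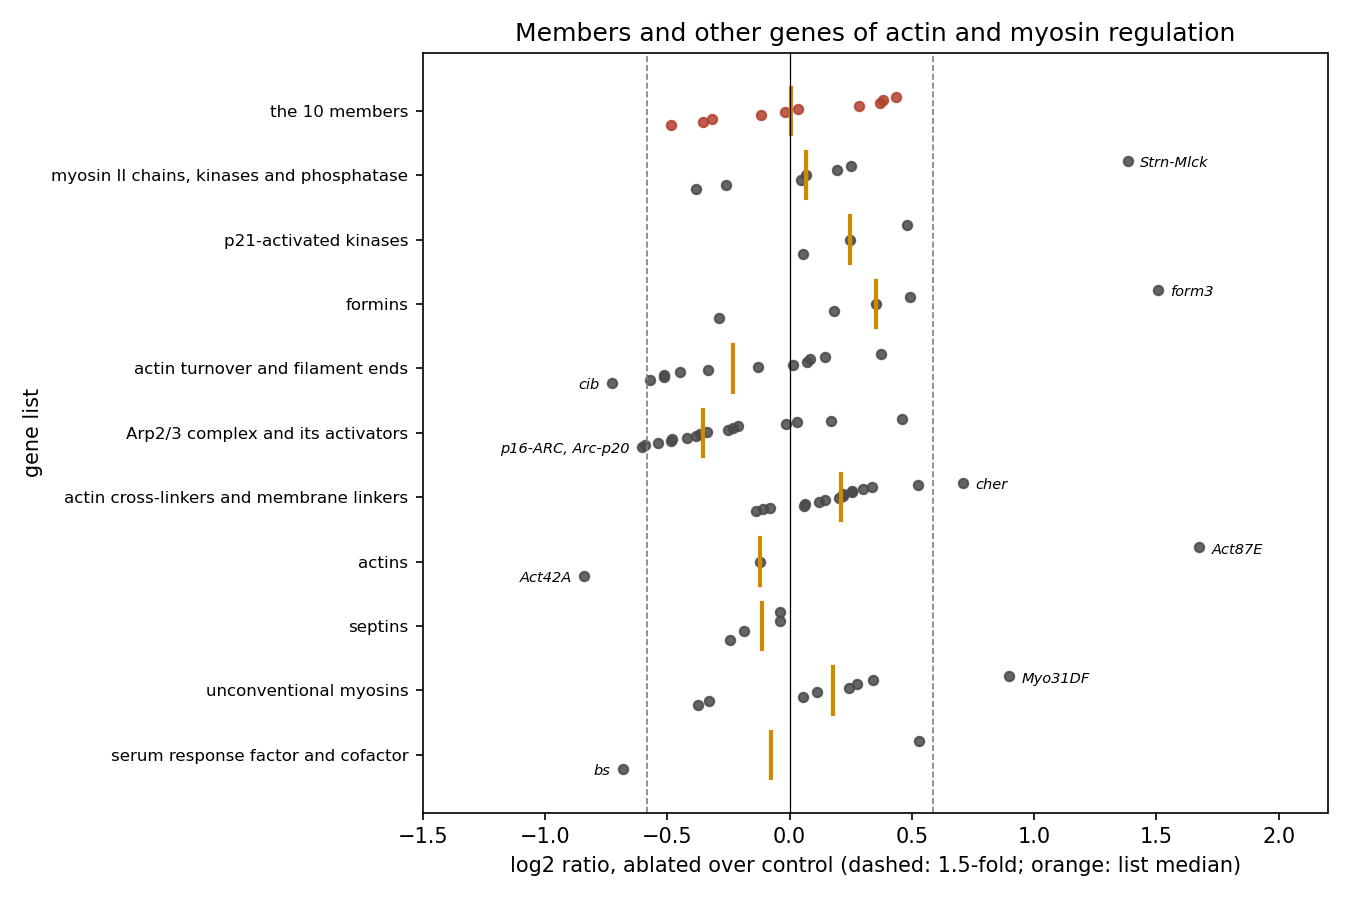
Log2 ratio of ablated over control for the 10 members (red) and 76 of the 110 other genes of actin and myosin regulation with a mean of at least 1 FPKM (grey), by list; each point is a gene, orange bars are list medians, dashed lines mark 1.5-fold, and the 10 plotted genes past it are named. No member lies outside the dashed lines, and the list of the Arp2/3 complex has its median at -0.35.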

How the data were processed

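Sorted nub-GFP cells of 2 groups of 3 replicates were profiled by mRNA-seq. The authors trimmed reads, aligned them with Tophat2 to release 5 of the Drosophila genome and estimated FPKM with Cufflinks with bias and multi-read correction (the submitters' notes give versions 0.6 and 0.0.7). The deposited table holds 1 geometrically normalized FPKM per gene and group from Cuffdiff. It also holds the authors' fold changes, test statistics, p-values and q-values, which were not used.

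Log2 ratios were computed without a pseudocount. Background shares came from 8437 genes (mean over both groups 1 FPKM or more), split into 20 bins of level or of longest transcript (Ensembl BDGP6 annotation, found for 98.2% of genes with a finite ratio). Coordinates are those of the table, counted from 1, and a locus spans all genes merged into it. All listed genes matched by symbol or a RefSeq synonym.

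Named were the 10 members and, for each other list reported, its most abundant gene by the mean of both groups and up to 4 genes past 1.5-fold. Mbs, Mrtf, d, the ratios between genes and the set of Arp2/3 subunits were chosen after their values were seen. Members and lists were chosen with earlier results of these data known. The code was tested on simulated data. Promoter and protein sequences were not analysed here. The results of some lists of the wider machinery are not reported here. Figures were drawn with matplotlib 3.10.9, and values computed in Python 3.11.15 with scipy 1.17.1, pandas 2.3.3 and numpy 2.4.6.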

Additional observations from a re-analysis of the deposited data

How the results depend on the processing

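With no replicate values, no replicate could be left out and the depth behind a gene is unknown. No paired analysis was possible because the table gives 1 value per group. Pseudocounts of 0.1 and 1 FPKM changed no count of members or other pathway genes past 1.5-fold and no direction of a member. Rescaling both groups to the same FPKM sum gave 3 members and 26 other pathway genes at least 1.5-fold higher and 0 other pathway genes lower. The members' median was then 0.29, and zip became 0.31, Rho1 0.26 and ena 0.16. Centring on the median gave 3 other pathway genes lower and 0.021 for Rho1. Against genes of similar level, 1 member was higher and 2 other pathway genes were lower. The members' median was then 0.32, and zip became 0.39, Rho1 0.31, chic 0.012 and ena 0.030. Against genes of similar transcript length, chosen after the values were seen, the members' median was -0.13, zip became -0.32, rok -0.068 and Rho1 0.052. There the other pathway genes numbered 7 higher and 4 lower. Leaving out genes that share a locus left 5 other pathway genes higher and 3 lower. At 2-fold the other pathway genes numbered 4 higher and 0 lower, and at a log2 ratio of 0.322 in size 26 higher and 22 lower, with 3 members higher and 2 lower. A mean FPKM of at least 0.1 gave 15 other pathway genes higher and a mean of at least 5 gave 5. Apart from the effect of fewer or more genes under another filter or threshold, the cause of these shifts was not tested.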
